A study of Mus musculus with 4 samples.

Results

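The KLF and Sp zinc finger factors described here are the transcription factor genes Klf1, Klf2, Klf3, Klf4, Klf6, Klf9, Klf10, Klf13, Sp1 and Sp3, followed in mouse erythroid cells with array values. A member had to be represented by array features annotated to exactly 1 gene, that gene being on the list. All 10 genes met this rule with 11 features, out of 19938 genes and 28944 tested features in the whole table. A feature is the set of probes that the array summarises into one value for a transcript. Klf1 to Klf13 and Sp1 had 1 feature each, and Sp3 had 2, of which the brighter one stood for the gene.

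The series holds 4 single-colour arrays of total RNA, 2 from differentiating MEL cultures and 2 from differentiating ES-EP cultures, lettered A and B within each group. MEL cells are a mouse erythroleukemia line. They grew in DMEM with fetal bovine serum, glutamine and puromycin, and estradiol was added for 48 hours to differentiate them. ES-EP is a line of erythroid progenitors derived from embryonic stem cells. These cells were expanded in StemPro34 medium with erythropoietin, IGF-1, dexamethasone (a glucocorticoid), stem cell factor and mercaptoethanol, and were moved for 24 hours to the same medium with erythropoietin, insulin, mifepristone (a glucocorticoid antagonist) and mercaptoethanol. The gene that puromycin selects for in MEL and what estradiol acts on there were not given in the sources used here. The number of clones behind either line and the culture dates were not given either. Line, medium, steroid and hours differed together and cannot be told apart, and no undifferentiated culture was analysed here. Across the tested features, which are not independent, the MEL arrays correlated at r = 0.997 and the ES-EP arrays at r = 0.998, and the highest correlation between the groups was 0.949. Fewer cells of a type and less RNA per cell also cannot be told apart in bulk samples.

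KLF and Sp proteins share a carboxy-terminal block of zinc fingers that binds GC-rich boxes and CACCC boxes in promoters and enhancers. Members with similar fingers compete for the same DNA, and the rest of the protein decides whether a gene is activated or repressed. KLF1 is the erythroid founder of the family and activates adult beta globin, heme and membrane genes. KLF3 is known as a gene that KLF1 activates in mouse erythroid cells and as a repressor of CACCC-box genes through the corepressor CtBP. KLF9, KLF10 and KLF13 recruit the Sin3A corepressor, KLF2, KLF4 and KLF6 act in endothelial, epithelial and blood cells, and Sp1 and Sp3 are found in most cells.

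Klf9, Klf6, Klf3 and Klf1 had the largest differences among the 10 genes, and the starts of these genes are shown for that reason. Promoter windows of 300 bases, with 250 before and 50 after the start of a gene, were taken from RefSeq on build GRCm38.p6. Windows were found for 9 of the 10 members, Klf10 being the one without. Capitals mark the core of the sites that KLF factors bind, CCNCNCCC or GGGNGNGG on the other strand. Each window reads 5′ to 3′ in the direction of the gene.
Klf9 (chr19:23140976-23141275, plus strand): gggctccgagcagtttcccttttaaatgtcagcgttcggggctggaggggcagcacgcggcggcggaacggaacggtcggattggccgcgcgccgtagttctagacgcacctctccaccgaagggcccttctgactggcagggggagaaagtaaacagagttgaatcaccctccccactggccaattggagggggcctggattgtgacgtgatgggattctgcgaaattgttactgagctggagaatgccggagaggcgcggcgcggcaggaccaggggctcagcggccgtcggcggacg
Klf6 (chr13:5861239-5861538, plus strand): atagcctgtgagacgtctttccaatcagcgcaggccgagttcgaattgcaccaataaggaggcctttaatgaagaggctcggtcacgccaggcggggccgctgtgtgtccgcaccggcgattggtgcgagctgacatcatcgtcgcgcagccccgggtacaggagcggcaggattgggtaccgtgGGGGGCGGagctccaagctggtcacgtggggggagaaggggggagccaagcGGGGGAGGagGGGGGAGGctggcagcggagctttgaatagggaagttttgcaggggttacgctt
Klf3 (chr5:64803271-64803570, plus strand): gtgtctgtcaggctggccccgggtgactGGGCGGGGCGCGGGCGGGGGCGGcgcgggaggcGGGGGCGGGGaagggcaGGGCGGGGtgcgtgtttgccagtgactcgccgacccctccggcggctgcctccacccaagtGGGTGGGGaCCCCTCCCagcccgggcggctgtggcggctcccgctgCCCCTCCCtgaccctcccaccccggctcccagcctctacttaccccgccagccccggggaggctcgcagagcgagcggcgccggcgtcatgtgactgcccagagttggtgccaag
Klf1 (chr8:84901732-84902031, plus strand): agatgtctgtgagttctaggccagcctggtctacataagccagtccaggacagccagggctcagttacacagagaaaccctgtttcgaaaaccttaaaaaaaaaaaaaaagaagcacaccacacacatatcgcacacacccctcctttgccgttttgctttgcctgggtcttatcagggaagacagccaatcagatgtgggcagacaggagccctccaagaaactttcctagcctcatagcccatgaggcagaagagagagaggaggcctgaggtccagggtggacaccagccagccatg

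The windows of Klf3 and Klf6 held KLF cores, while those of Klf9 and Klf1 held none of these letters. Counted from the start of the gene, with negative numbers before it, Klf3 had 10 matches beginning between -222 and -65, and Klf6 had 3, of which the nearest began at -4. The GC box core GGGCGG, the textbook site of Sp factors, was found 6 times in the Klf3 window and 1 time in the Klf6 window, and 5 and 1 of these overlapped a KLF core. The Klf1 window held 1 GATA core (GATAA on the other strand), beginning at -80, and the Klf9 window held no GATA core and no TGTTCT, an element of glucocorticoid receptor sites. On both strands, 49.5% of all 32851 windows held a KLF core, 35.7% a GC box core, 25.4% GATAA and 19.0% TGTTCT. A match is a description of the letters and not a bound site, and the GC content of the 4 windows ran from 51.3% in Klf1 to 76.7% in Klf3.

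Lower signal in MEL was the common direction among the members. With limma over all tested features, 7 of the 10 genes were lower in MEL than in ES-EP at a Benjamini-Hochberg adjusted p under 0.05, 0 were higher and 3 did not pass. Of all 19938 genes, 36.9% were lower and 21.8% were higher by the same rule. At an unadjusted p under 0.05, 7 members were lower and 1 was higher, against 41% and 23.1% of all genes. Klf9, Klf6 and Klf3 were also at least 2-fold lower, against 4.93% of all genes, and 0 members were at least 2-fold higher, against 7.38%. The MEL and ES-EP values of 9 members did not overlap, 8 being lower in MEL and 1 higher, against 51.5% and 28.7% of all genes. The median difference of the members was -0.48 on the log2 scale, against -0.14 for all genes.

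The direction of small differences depended on how the arrays were scaled. Of all genes past the threshold, 37.1% were higher in MEL on the deposited values, 48.3% after quantile normalization and 54.3% after cyclic loess between the arrays. After cyclic loess 29% of all genes were higher and 24.5% lower. The median difference of all genes was -0.02 after quantile normalization, -0.07 after centring on array medians and 0.02 after cyclic loess. The members' differences are therefore also given relative to the median of all genes on the deposited values.

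**Figure D1:**
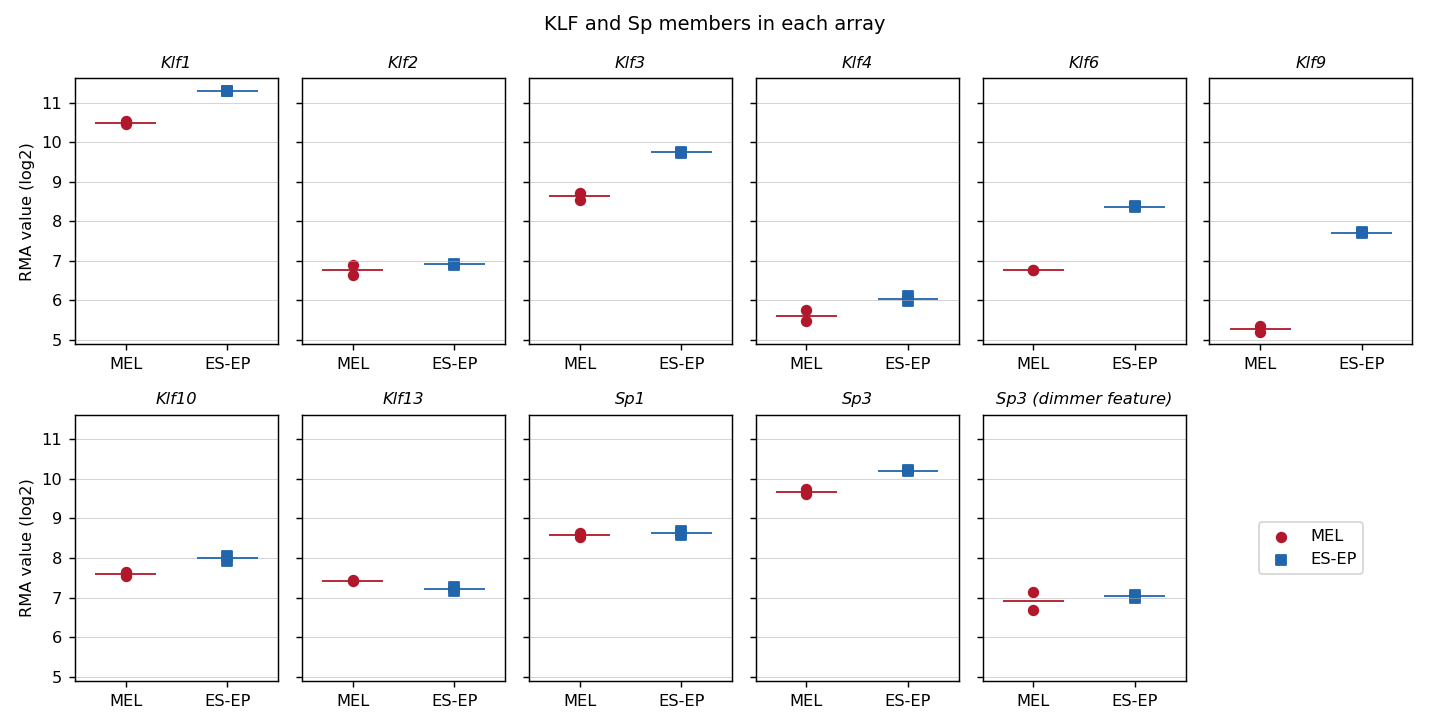
RMA values (log2) of the 10 members in each array, with MEL cultures on the left (circles), ES-EP cultures on the right (squares) and the group mean as a line; the last panel is the dimmer feature of Sp3. Klf9, Klf6, Klf3 and Klf1 separate clearly, at -2.43, -1.60, -1.11 and -0.81, while the Sp1 arrays overlap.

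Klf1, the erythroid activator, was bright in both systems and lower in MEL. Its log2 values were 10.45 and 10.55 in MEL cultures, against 11.30 and 11.31 in ES-EP cultures. The groups did not overlap, and the 2 ES-EP values lay within 0.0083 of each other. MEL cultures averaged 10.50 ± 0.06 and ES-EP cultures averaged 11.31 ± 0.01 (SD, n = 2 each), a difference of -0.81 ± 0.08 (SE) or 1.75-fold lower (limma, adjusted p = 0.00018). Relative to the median of all genes the difference was -0.67. It passed under all 14 alternatives, at -0.85 to -0.66.

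Klf3, the CACCC-box repressor, was also lower in MEL. It stood at 8.55 and 8.72 in MEL cultures, against 9.76 and 9.74 in ES-EP cultures. All MEL values were below all ES-EP values. The difference was -1.11 ± 0.09 (SE), 2.16-fold lower in MEL (limma, adjusted p = 5.79e-05), and -0.97 relative to the median of all genes. The 95% interval of Klf3, -1.33 to -0.89, and that of Klf1, -1.002 to -0.61, overlapped, and no test was made between the genes. Klf3 is the member whose window holds the most KLF cores among the 4 printed above. Of the windows not printed, that of Klf4 held 9, Klf13 5, Klf2 4, Sp1 4 and those of Sp3 6 and 0. The Klf9 window held 0, and a link between these letters and the differences was not tested.

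Klf9, a Sin3A-binding repressor known in many tissues as a gene that glucocorticoids switch on, had the largest difference of the 10. Its values were 5.36 and 5.20 in MEL cultures, against 7.73 and 7.69 in ES-EP cultures. The MEL values lay below the array medians of 5.89 and 5.78, so Klf9 was dim in MEL and clearly brighter in ES-EP. The difference was -2.43 ± 0.09 (SE), with a 95% interval of -2.65 to -2.22 (limma, adjusted p = 1.17e-06). This is 5.40-fold lower in MEL, and a fold against a dim group may understate the change. Relative to the median of all genes the difference was -2.29. Under the 14 alternatives it ran from -2.51 to -2.35.

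Klf10 and Klf13 also recruit Sin3A, and neither followed Klf9 in size. Klf10, an early response gene of TGF-beta signalling, was at 7.55 and 7.64 in MEL cultures, against 7.93 and 8.05 in ES-EP cultures. The groups were separate but close, with a difference of -0.39 ± 0.09 (SE, limma, adjusted p = 0.00786) and -0.25 relative to the median of all genes. Without ES-EP culture B the difference was -0.33 and did not pass (adjusted p = 0.0727).
Klf13, known for activating the chemokine gene Ccl5 in T cells, was the only member with a higher mean in MEL, at 7.41 and 7.44 in MEL cultures, against 7.28 and 7.16 in ES-EP cultures. Its difference of 0.21, with a 95% interval of 0.0049 to 0.41, did not pass (limma, adjusted p = 0.0749), and it was 0.35 relative to the median of all genes. It passed after cyclic loess (0.26, adjusted p = 0.0322) and with features under the median left out (0.21, adjusted p = 0.0462), and was 0.06 after quantile normalization (adjusted p = 0.540).

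Among the activators related to KLF1, Klf6 was far lower in MEL, Klf4 slightly lower, and Klf2 did not pass. Klf6, a growth-restraining factor induced by serum and injury, stood at 6.77 and 6.76 in MEL cultures, against 8.38 and 8.35 in ES-EP cultures. Both pairs of cultures were nearly identical, and the gap between groups was 3.02-fold (-1.60 ± 0.08, SE, limma, adjusted p = 4.79e-06). Relative to the median of all genes the difference was -1.46, and it ran from -1.69 to -1.53 under the 14 alternatives.

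Klf4, one of the reprogramming factors of pluripotency, lay near the array medians. It was at 5.74 and 5.48 in MEL cultures, against 5.98 and 6.11 in ES-EP cultures, where the array medians were 5.91 and 5.89. The groups did not overlap, and the difference of -0.43 ± 0.11 (SE) passed (limma, adjusted p = 0.0137), being -0.29 relative to the median of all genes. It no longer passed without MEL culture B (-0.30, adjusted p = 0.0536) or without ES-EP culture B (-0.36, adjusted p = 0.0743).
Klf2, which keeps T cells and endothelium quiescent and activates embryonic globin genes in mouse embryos, was at 6.89 and 6.65 in MEL cultures, against 6.90 and 6.92 in ES-EP cultures. MEL culture A lay just under the ES-EP values and culture B further below. The difference of -0.15 had a 95% interval of -0.39 to 0.10 and did not pass (limma, adjusted p = 0.260), and it was -0.01 relative to the median of all genes. It passed after quantile normalization (-0.30, adjusted p = 0.0397) and without MEL culture A (-0.27, adjusted p = 0.0413).

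The broadly expressed Sp1 and Sp3 bind the same GC boxes; Sp3 passed and Sp1 did not, and the difference between the genes was not tested. Sp1, a glutamine-rich activator, was at 8.52 and 8.63 in MEL cultures, against 8.57 and 8.68 in ES-EP cultures. The groups overlapped, and the difference of -0.05 had a 95% interval of -0.26 to 0.16 (limma, adjusted p = 0.636). Relative to the median of all genes it was 0.09, with the sign turned. Its sign turned after centring on array medians and after cyclic loess, and it passed under none of the 14 alternatives.
Sp3, which activates or represses depending on isoform and modification, was at 9.61 and 9.76 in MEL cultures, against 10.19 and 10.23 in ES-EP cultures. The groups did not overlap, and the difference was -0.53 ± 0.09 (SE, limma, adjusted p = 0.00208), or 1.44-fold lower, and -0.39 relative to the median of all genes. The dimmer Sp3 feature stood at 7.14 and 6.69 in MEL cultures, against 7.07 and 6.99 in ES-EP cultures. It overlapped between groups and did not pass (-0.11, 95% interval -0.46 to 0.23, adjusted p = 0.525). The interval of the brighter feature, -0.74 to -0.32, overlaps this one, and no test was made between the features. The mean of the features passed (-0.32, adjusted p = 0.0135). The transcripts that each Sp3 feature measures were not given in the sources used here.

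**Figure D2:**
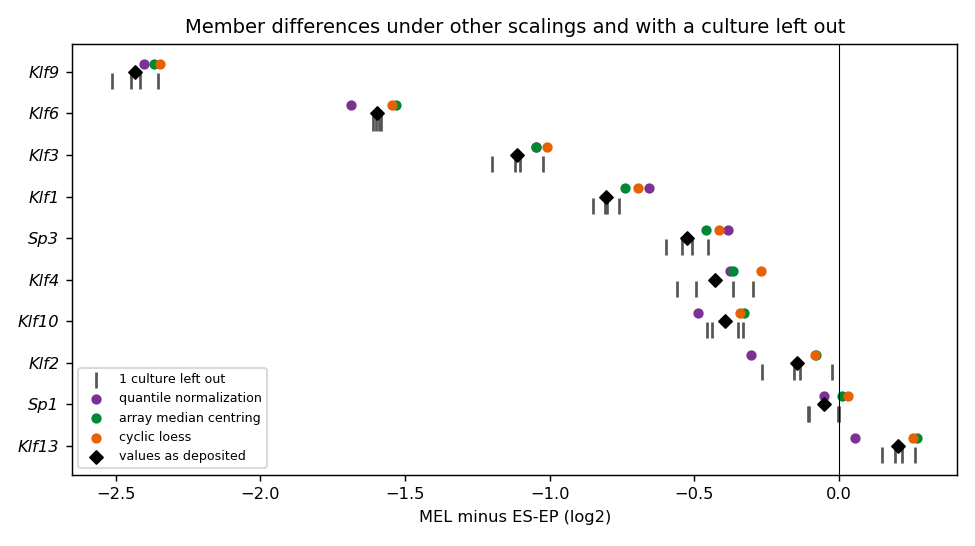
Difference of MEL minus ES-EP (log2) for each member on the deposited values (diamonds), after 3 other scalings (coloured circles) and with 1 culture left out (grey ticks). Klf9, Klf6, Klf3 and Klf1 stay apart from 0 throughout, and Sp1 lies on both sides of it.

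The wider family was measured through 15 of the 16 other KLF and Sp genes on the list, Sp2 being not analysed here. Of these, 2 were higher in MEL, 5 were lower and 8 did not pass, with a median difference of -0.19 against -0.14 for all genes. After cyclic loess 3 were higher and 3 lower, against 29% and 24.5% of all genes. With the 10 members, 25 family genes were measured, 2 of them higher and 12 lower. In the subgroup of activators around KLF1, 4 of 6 were lower and 0 higher. Among the Sin3A-binding factors, 4 of 6 were lower and 0 higher, and among the CtBP-binding factors 2 of 3 were lower and 0 higher. Of the 3 measured genes from Sp1 to Sp4, 1 was higher and 1 lower, and of the 5 from Sp5 to Sp9, 1 was higher and 1 lower. Of the 2 other KLF genes, Klf15 and Klf17, neither passed. Beside these small counts, 36.9% of all genes were lower and 21.8% higher.

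Sp4, the close relative of Sp1 and Sp3 known from neurons, had the largest rise of the family. It was at 8.70 and 8.98 in MEL cultures, against 7.23 and 7.41 in ES-EP cultures. Every MEL value was above every ES-EP value, with a difference of 1.52 ± 0.12 (SE) or 2.87-fold (limma, adjusted p = 4.1e-05). Sp1, Sp3 and Sp4 differed by -0.05, -0.53 and 1.52 between the same cultures.

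Klf11 and Klf7 were the next largest falls outside the members. Klf11, the nearest relative of Klf10, was at 8.19 and 8.05 in MEL cultures, against 8.98 and 8.85 in ES-EP cultures (-0.80 ± 0.09, SE, limma, adjusted p = 0.000354). Klf7, a relative of Klf6 that acts in neurons and blood progenitors, was at 7.03 and 7.06 in MEL cultures, against 7.69 and 7.85 in ES-EP cultures (-0.72 ± 0.09, SE, limma, adjusted p = 0.000478). Klf16, another Sin3A binder, was slightly lower (-0.40, adjusted p = 0.0056). Sp4, Klf11, Klf7 and Klf16 passed in the same direction under all 14 alternatives.

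The remaining family genes had small differences. Klf8, a CtBP-binding factor that KLF3 represses in mouse erythroid cells, was dim, at 4.49 and 4.32 in MEL cultures, against 4.66 and 4.73 in ES-EP cultures. Its difference of -0.29 passed on the deposited values (limma, adjusted p = 0.0322) and under none of the 3 other scalings. Sp8 was lower (-0.46) and lost its call after quantile normalization and cyclic loess. It was also lost without ES-EP culture B. Sp7, the osteoblast factor osterix, was higher (0.38) and lost its call without ES-EP culture A. Klf5 (0.11), Klf12 (0.17), Klf14 (-0.15), Klf15 (-0.29), Klf17 (-0.08), Sp5 (-0.14), Sp6 (-0.19) and Sp9 (-0.28) did not pass. Klf12 passed after quantile normalization and cyclic loess, and Klf14, Klf15 and Sp9 passed without MEL culture A.

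**Figure D3:**
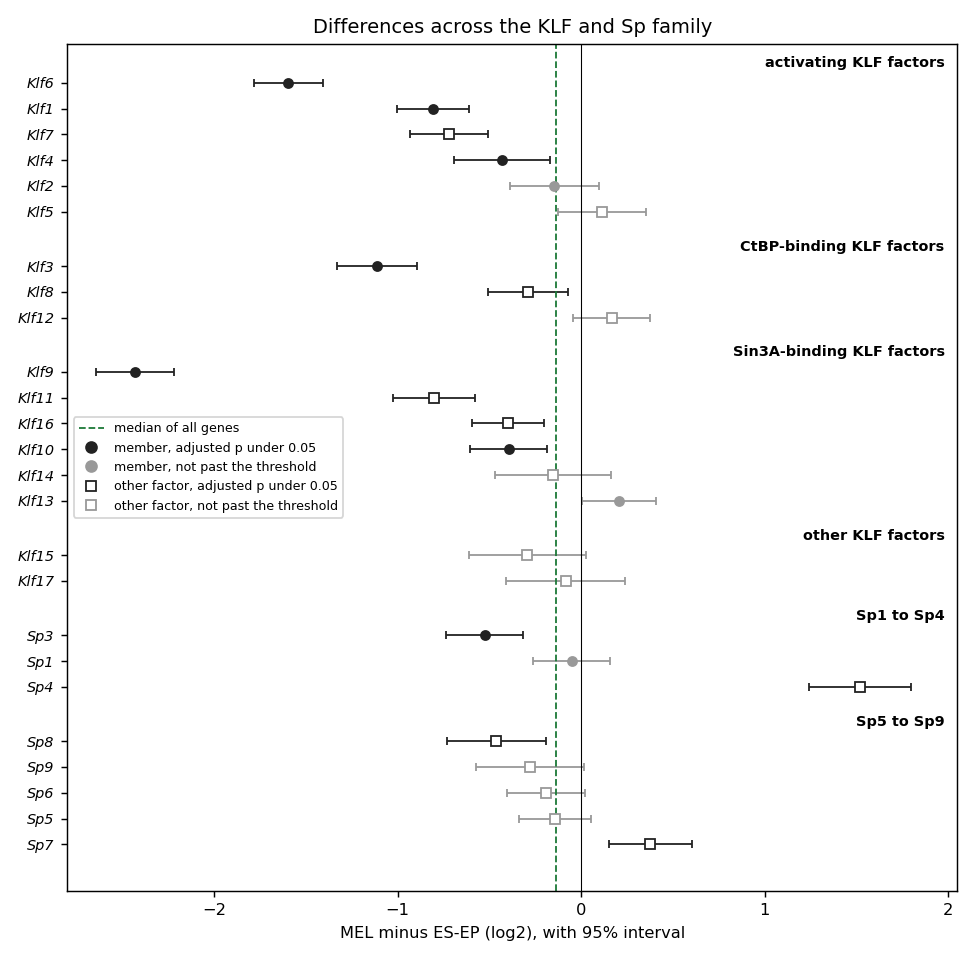
Difference of MEL minus ES-EP (log2) with its 95% interval for the 25 measured KLF and Sp genes, by subgroup, with members as circles, other factors as squares, genes past the threshold in black and the others in grey. The dashed line is the median of all genes at -0.14; Klf9 lies at -2.43 and Sp4 at 1.52.

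Cofactors that KLF and Sp proteins recruit were split between the directions. Of 16 measured, 7 were higher in MEL and 3 lower, against 21.8% and 36.9% of all genes. The other 6 did not pass, and the median difference of the list was 0.15. After cyclic loess 9 were higher and 3 lower, against 29% and 24.5% of all genes. Ctbp2, the corepressor of KLF3, KLF8 and KLF12, stood at 8.64 and 8.60 in MEL cultures, against 7.52 and 7.19 in ES-EP cultures, a difference of 1.27 (limma, adjusted p = 0.000105). Its relative Ctbp1 differed by 0.15 and did not pass (adjusted p = 0.144). The SWI/SNF subunit genes Smarca4 (0.58) and Smarcb1 (0.49) were higher, and their partner Smarcc1 (-0.62) was lower. Sin3a, the scaffold that KLF9, KLF10 and KLF13 bind, was higher by 0.41 (adjusted p = 0.00477).

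Kat2b, an acetyltransferase gene known as PCAF, was at 6.81 and 7.09 in MEL cultures, against 8.32 and 8.23 in ES-EP cultures (-1.33, limma, adjusted p = 5.70e-05). Crebbp, which acetylates KLF1 in erythroid cells, was lower by -0.50 (adjusted p = 0.00283), and its relative Ep300 differed by -0.06 and did not pass (adjusted p = 0.659).

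Genes described as KLF1 targets were mostly lower in MEL, with a few large exceptions. Of 38 on the list, 31 were measured, 23 of them lower and 4 higher, against 36.9% and 21.8% of all genes. The other 4 did not pass, and the median difference of the list was -0.81, against -0.14 for all genes. At least 2-fold, 13 were lower and 3 higher, against 4.93% and 7.38% of all genes. After cyclic loess 21 were lower and 6 higher, against 24.5% and 29% of all genes. The largest falls were in Slc4a1, the anion exchanger of red cells (-5.44), Cldn13, an erythroid claudin (-2.10), and E2f2, a cell cycle factor of erythroblasts (-2.02). The rises were in Trim10 (2.91), the water channel gene Aqp1 (2.31), the adducin gene Add2 (2.15) and the potassium channel gene Kcnn4 (0.62). Bcl11a, the repressor of embryonic globins that KLF1 activates, was at 9.40 and 9.47 in MEL cultures, against 10.59 and 10.59 in ES-EP cultures (-1.16, limma, adjusted p = 2.62e-05). Of the 35 promoter windows found for 26 of the 38 genes, 71.4% held a KLF core, against 49.5% of all 32851 windows. The GC content of the 2 sets of windows was not compared.
This list was assembled with earlier results of these data known, and no test of the list as a group was made.

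Genes tied to KLF2, KLF3, KLF4, KLF6 and KLF10 held some of the widest gaps. Of 10 on this list, 8 were measured, with 6 lower and 1 higher, against 36.9% and 21.8% of all genes. The remaining 1 did not pass, and after cyclic loess 1 was higher and 5 lower, against 29% and 24.5% of all genes. Klf8, also counted with the wider family above, was 1 of the 6 lower and passed under none of the 3 other scalings. C1qtnf12, an adipokine gene that KLF3 represses in mouse, stood at 5.45 and 5.23 in MEL cultures, against 9.24 and 9.16 in ES-EP cultures (-3.86, limma, adjusted p = 2.47e-07). Klf3 itself was lower in the same MEL cultures. Lgals3, also described as repressed by KLF3, was lower by -0.38 and lost its call without MEL culture B or ES-EP culture B. The embryonic globin genes Hbb-bh1 (-3.25) and Hbb-y (-0.81), which KLF1 and KLF2 activate in mouse embryos, were lower. Hbb-y was below the array medians in both groups, and Hbb-bh1 and C1qtnf12 were below them in MEL. S1pr1, a KLF2 target in T cells, was dim in both groups and lower by -0.70, while Klf2 did not pass. Smad7, an inhibitor of TGF-beta signalling that KLF10 represses, was higher by 1.17 (adjusted p = 2.30e-05), while Klf10 was lower.

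Klf6 and Klf10 belong to the genes that serum or cytokines can switch on within minutes, and other such genes showed both directions. Of 16 immediate early genes, 8 were lower in MEL and 2 higher, against 36.9% and 21.8% of all genes. The other 6 did not pass, and the median difference of the list was -0.35. After cyclic loess 8 were lower and 3 higher, against 24.5% and 29% of all genes. Jun, an AP-1 subunit, stood at 4.94 and 4.81 in MEL cultures, against 8.20 and 8.09 in ES-EP cultures (-3.27, limma, adjusted p = 3.44e-07). The phosphatase gene Dusp1 (-2.11) and Ier2 (-1.68) were also lower. Nr4a1, a nuclear receptor gene, was higher, at 7.10 and 7.02 in MEL cultures, against 4.73 and 4.70 in ES-EP cultures (2.34, adjusted p = 9.26e-07). Ier3 was higher by 0.37, and this call was lost after quantile normalization and without ES-EP culture A or B.

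Genes that respond to glucocorticoids, the steroid class to which Klf9 is known to respond, also moved both ways. Of 11 measured, 6 were lower in MEL and 3 higher, against 36.9% and 21.8% of all genes. The other 2 did not pass, and the median difference of the list was -0.32. After cyclic loess 5 were lower and 4 higher, against 24.5% and 29% of all genes, and the list median was -0.10. Beside Dusp1, the leucine zipper gene Tsc22d3 (-1.06) and the metallothionein gene Mt2 (-0.996) were lower. Errfi1, a feedback inhibitor of EGF receptor signalling, was higher by 1.42, Per1 by 0.38 and Sgk1 by 0.30. The call of Per1 was lost after quantile normalization, with control features included and without MEL culture B or ES-EP culture A, and that of Sgk1 without ES-EP culture A or B. Fkbp5, a widely used glucocorticoid reporter gene, differed by 0.17 and did not pass (adjusted p = 0.121). The part of dexamethasone and mifepristone in these values was not tested.

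**Figure D4:**
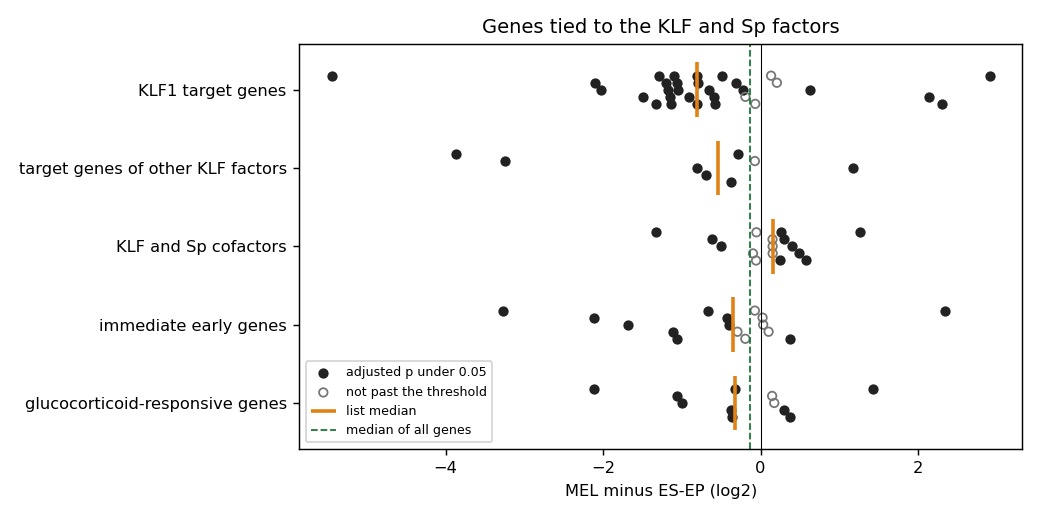
Difference of MEL minus ES-EP (log2) for each measured gene on the 5 lists around the KLF and Sp factors, filled where past the threshold and open where not, with the list median in orange and the median of all genes as a dashed line. The KLF1 targets centre on -0.81 and reach -5.44 and 2.91.

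Of 8 erythroid markers 6 were measured, with median levels of 11.07 and 11.06 in MEL cultures, against 11.97 and 11.92 in ES-EP cultures. Alas2, Tfrc, Tal1 and Slc4a1 were lower in MEL, and Gata1 and Epor were higher, where 36.9% and 21.8% of all genes were. Alas2, Tfrc and Slc4a1 were also counted with the KLF1 targets above. Slc4a1 stood far apart from the other 5, at 6.98 and 7.10 in MEL cultures, against 12.45 and 12.51 in ES-EP cultures.

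Some markers of other cell types also differed, in a table where 36.9% of all genes were lower in MEL and 21.8% higher. Of 4 megakaryocyte markers measured, Pf4 (4.38) and Itga2b (2.22) were higher in MEL, while Gp9 (-0.06) and Vwf (0.06) did not pass. The list medians were 7.70 and 7.60 in MEL cultures, against 6.48 and 6.63 in ES-EP cultures. Of 5 macrophage markers, Csf1r (-0.92) and Cd68 (-0.86) were lower in MEL and passed under every alternative in which they were tested, and the other 3 did not pass. The macrophage medians were 4.35 and 4.40 in MEL cultures, against 4.75 and 4.54 in ES-EP cultures.

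Of 4 lymphocyte markers 1 was higher and 2 were lower, with a median difference of -0.26. The lymphocyte medians were 5.32 and 5.29 in MEL cultures, against 4.97 and 5.15 in ES-EP cultures, opposite in sign to the median difference. Of 5 fibroblast markers 1 was higher and 3 were lower, with a median difference of -0.28 and median levels of 6.54 and 6.36 in MEL cultures, against 6.54 and 6.40 in ES-EP cultures. Of 4 embryonic stem cell markers 1 was higher and 3 were lower, with medians of 4.25 and 4.32 in MEL cultures, against 4.82 and 4.77 in ES-EP cultures. Of 4 endothelial markers 0 were higher and 2 lower, with medians of 4.84 and 4.83 in MEL cultures, against 5.13 and 5.06 in ES-EP cultures. After cyclic loess 1 lymphocyte marker was higher and 1 lower, and 1 fibroblast marker was higher and 1 lower. Of all genes, 29% were higher and 24.5% lower by this scaling. By the same scaling 1 embryonic stem cell marker was higher and 2 were lower, and 0 endothelial markers were higher or lower. The part of these markers in the differences of the KLF and Sp genes was not tested. RMA values have no 0, so no marker could be read as absent.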

How the data were processed

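Total RNA of 4 cultures was measured on the Affymetrix Mouse Gene 1.0 ST array. Per the labels, the deposited values are RMA summaries from GeneSpring GX, and the submitters' processing notes also name RMA. That the authors deposited them as log2 values follows from their range. The software version, any filters and the set of arrays in the normalization were not given in the sources used here. Such a normalization hides changes in total RNA per cell and leaves a floor for dim features. No detection calls or background levels were used here.

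Of 35557 features, 6613 control features were left out. Symbols came from the platform annotation, updated through Entrez identifiers with RefSeq of GRCm38.p6, where 21698 features matched. A total of 21789 tested features had 1 symbol, 1621 had several and 5534 none. A gene with several features was represented by the brightest.

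MEL minus ES-EP was fitted with limma 3.58.1 in R 4.3.3 (lmFit, eBayes, group only), with Benjamini-Hochberg adjustment over 28944 features, 2 residual and 5.15 prior degrees of freedom. The procedure was tested on simulated data. An exact permutation test of 4 arrays cannot give a two-sided p under 0.333. Each p-value sets the difference against a variance that limma takes from these duplicate cultures and moderates over all tested features. The number of arrays limits the precision.

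The members and lists were chosen with earlier results of these data known. Named genes are all members, all other KLF and Sp genes and, in each list, up to 3 passing genes with the largest rise and fall. For Klf1 and Klf9 the 3 nearest genes are named as well. This rule did not cover the neighbours of the members or the cell type markers that are also named. Ctbp1, Sin3a, Ep300, Bcl11a, Lgals3, S1pr1, Fkbp5 and Kcnn4 were added after their values were seen, for their known roles. Alternatives were 3 scalings, 2 priors, 3 other feature sets, the mean of a gene's features, a replicate block and each culture left out in turn.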

Additional observations from a re-analysis of the deposited data

How the results depend on the processing

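Under the 14 alternatives, Klf1, Klf3, Klf6, Klf9 and Sp3 kept their direction and their call, and the counts of members lower in MEL and at least 2-fold lower stayed within 1.5 times of those on the deposited values. The count of members higher in MEL, 0 on the deposited values, was 1 (Klf13) after cyclic loess and 1 with features under the median left out. Under these settings 29% and 34.7% of the genes fitted were higher. The Sp1 difference of -0.05 was 0.012 after centring on array medians and 0.031 after cyclic loess, and ran from -0.11 to 0.00036 with 1 culture left out. Klf4 could not be fitted with features under the median left out. The cause of these changes was not tested. The replicate letter did not pair the cultures by the labels, and the A minus B differences of the groups correlated with r = 0.110 across features, which are not independent. With the letter as a replicate block the count of lower members was 7 and no member's call changed. Centring gave an infinite number of prior degrees of freedom. No background level of single features was used here. This limits the differences of genes below the array medians. Among them were Klf8, Sp7, Sp8, Hbb-y, S1pr1 and Csf1r in both groups, and Klf9, Klf4, Jun, Hbb-bh1 and C1qtnf12 in MEL. Akr1e1, Pf4, Nr4a1 and, by its mean of 5.34, Amhr2 were below the array medians in ES-EP. All measured embryonic stem cell and endothelial markers had a mean over the 4 arrays under the median feature.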

Other observations

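The genes next to the members on the chromosome, taken from the RefSeq order of protein-coding genes and measured here, included some with large differences of their own. Beside Klf9, Trpm3 differed by -0.09 and Smc5 by -0.09, and neither passed (limma, adjusted p = 0.467 and 0.441). Beside Klf6, Akr1e1, an aldo-keto reductase gene, averaged 8.27 in MEL cultures, against 3.73 in ES-EP cultures, higher by 4.53 (adjusted p = 8.99e-08), while Pitrm1, a mitochondrial protease gene, was lower by -0.37. Beside Klf1, Dnase2a, whose enzyme digests the nuclei expelled by erythroblasts in macrophages, was lower by -0.85 (adjusted p = 0.000114), and Gcdh differed by -0.06 and did not pass (adjusted p = 0.590). Beside Sp1, Amhr2, the receptor gene of anti-Mullerian hormone, averaged 7.15 in MEL cultures, against 5.34 in ES-EP cultures, higher by 1.81 (adjusted p = 3.09e-06). Of the neighbours of Klf3, Tlr1 differed by 0.02 and did not pass (adjusted p = 0.882). Ap1m1 (-0.56) and Eps15l1 (-0.43) beside Klf2 and Otud7a (-0.27) beside Klf13 were lower, and Rad23b (0.36) beside Klf4 was higher. Sp7, given above, is the other neighbour of Sp1. The remaining measured neighbours, Actl7b, Odf1, Azin1, Cdca7 and Ola1, did not pass. Of all genes, 36.9% were lower and 21.8% higher.

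The genes whose values followed Klf1 most closely over the 4 arrays were Lgals8, Rrm1 and Nrm, with root mean square distances of 0.0056, 0.0058 and 0.0064 on the log2 scale after centring each gene. They were searched among 10645 genes brighter than the median feature. Lgals8 is a galectin gene, Rrm1 encodes a ribonucleotide reductase subunit and Nrm a nuclear envelope protein, and their differences were -0.81, -0.81 and -0.80. For Klf9 the nearest were Gm10590, the survival gene Bcl2l1 and the stress gene Gadd45a, with distances of 0.045, 0.073 and 0.075 and differences of -2.48, -2.44 and -2.29. Over 4 arrays in 2 groups the distance is small wherever the difference between groups is equal and the duplicates are close.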
